A study of Mus musculus with 28 samples.

Results

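Satb1, Sox5 and Ikzf1 are 3 genes of nuclear regulators that were chosen by how far their levels fell with recombinant Nodal and with recombinant Cripto, each against Media. All probes that the array annotation assigns to these genes were taken, which gave 14 of the 45281 probes on the array and 3 of the 19057 genes with a named probe. Of the 14 probes, 9 passed the detection filter (a detection p below 0.01 on at least 3 of the 28 arrays): 1 of 2 for Satb1, 5 of 6 for Sox5 and 3 of 6 for Ikzf1. The other 5 probes, 1 for Satb1, 1 for Sox5 and 3 for Ikzf1, were detected on no array and carry no information on these genes here. The falls against Media chose the genes, so they are given below as a description without a test.

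The study treated Xen-eyfp cells, a single mouse line of extraembryonic endoderm stem cells, for 96 h and profiled total RNA on Illumina mouseWG6v2 arrays. The groups were 100 ng/ml Cripto together with SB431542 (5 arrays), 50 ng/ml Nodal together with SB431542 (3 arrays), 50 ng/ml Nodal alone (5), 100 ng/ml Cripto alone (5), SB431542 alone (5) and Media (5). The labels state no dose for SB431542, an inhibitor of the Alk4 receptor kinase. Nothing in them says that the arrays of a group came from separate cultures, and the spread behind each p-value may therefore be technical.

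Satb1 encodes a protein that binds AT-rich DNA, folds chromatin into loops and brings histone-modifying and remodelling enzymes to its sites, and it is best known from thymocytes. Sox5 belongs with Sox6 and Sox13 to the SoxD group of HMG-box factors, which have no activation or repression domain of their own; with Sox6 it supports Sox9 in cartilage formation. Ikzf1 encodes Ikaros, a zinc finger factor of lymphoid development that recruits the NuRD chromatin remodelling complex. Nodal is a TGF-beta family ligand that acts through Alk4 and Smad2/3, and Cripto is an EGF-CFC protein that serves as its co-receptor.

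The start-site windows of the 3 genes are shown because the genes moved together across the groups. RefSeq windows (build GRCm38.p6) run from 250 bases before to 50 bases after a start and were matched by symbol for 3 of 3 genes, with 5 windows for Satb1, 1 for Sox5 and 2 for Ikzf1. The most upstream window of each gene is printed, with the Smad half-site CAGAC or its reverse complement GTCTG in capitals.

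Satb1, chr17:51833241-51833540, minus strand: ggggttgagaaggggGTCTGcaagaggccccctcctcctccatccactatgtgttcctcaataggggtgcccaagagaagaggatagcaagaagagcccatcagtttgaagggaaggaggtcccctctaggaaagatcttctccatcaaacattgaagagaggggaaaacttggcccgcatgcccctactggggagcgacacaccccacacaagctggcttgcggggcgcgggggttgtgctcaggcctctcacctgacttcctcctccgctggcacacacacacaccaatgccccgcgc
Sox5, chr6:143947057-143947356, minus strand: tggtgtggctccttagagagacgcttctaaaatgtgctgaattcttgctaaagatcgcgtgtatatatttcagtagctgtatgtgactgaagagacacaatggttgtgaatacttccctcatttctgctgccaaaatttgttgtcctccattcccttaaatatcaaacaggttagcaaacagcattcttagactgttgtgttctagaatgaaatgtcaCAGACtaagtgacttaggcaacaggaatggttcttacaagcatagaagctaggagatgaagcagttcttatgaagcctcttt
Ikzf1, chr11:11685675-11685974, plus strand: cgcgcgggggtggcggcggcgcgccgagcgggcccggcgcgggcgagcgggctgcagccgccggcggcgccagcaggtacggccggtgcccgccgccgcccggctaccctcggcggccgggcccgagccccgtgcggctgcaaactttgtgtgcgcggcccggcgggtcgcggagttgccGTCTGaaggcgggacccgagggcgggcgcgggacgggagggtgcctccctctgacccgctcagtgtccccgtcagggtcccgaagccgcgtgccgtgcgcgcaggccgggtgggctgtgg

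Each of the 3 printed windows held 1 Smad half-site, and 6 of all 8 windows of these genes held at least 1, a match found in 49.6% of the 32851 windows of the same length. The Sox5 window had a GC content of 39.7% and 3 CpG dinucleotides, the Satb1 window 59.0% and 8, and the Ikzf1 window 81.3% and 52, beside medians of 52.7% and 7 over all windows. Other motifs were searched on both strands. None of the 8 windows held the GATA motif AGATAA, which 11.2% of all windows hold. None held the Sox motif AACAAT, found in 10.7%. None held the forkhead motif TGTTTAC, found in 3.65%. No motif overlapped another, since the half-site was the only one found in the printed windows.

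Array brightness, the mean signal over all probes, lay between 183.8 and 995.01 intensity units, and 13191 to 16183 probes were detected on an array. The median array brightness was 806 in Cripto with SB431542, 519 in Nodal with SB431542, 723 in Nodal, 686 in Cripto, 496 in SB431542 and 521 in Media. The arrays lay on 7 BeadChips, numbered here from 1 to 7, each with at most 1 array of a group, and the 4 arrays of BeadChip 5 were the dimmest. Of 13 markers of extraembryonic endoderm with a probe, 12 or 13 were detected on all arrays of each group. Levels below are log2 intensities after background correction and quantile normalisation, and a difference in them is a log2 fold change.

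Satb1 was high in 3 groups and close to background in the other 3. Its level was 6.18, 6.17, 6.39, 6.16 and 6.06 with Cripto and SB431542, against 11.24, 11.35 and 11.47 with Nodal and SB431542. It was 6.26, 6.40, 6.43, 6.98 and 6.80 with Nodal and 5.88, 6.09, 6.95, 6.30 and 6.30 with Cripto. It was 11.32, 11.60, 11.35, 11.39 and 11.35 with SB431542 and 11.25, 11.42, 11.40, 11.24 and 11.28 in Media. The high and the low arrays did not overlap: no Nodal, Cripto or Cripto with SB431542 array rose above 6.98, and no other array fell under 11.24. By mean level the order was SB431542 (11.40 ± 0.11, SD), Nodal with SB431542 (11.35 ± 0.12), Media (11.32 ± 0.09), Nodal (6.57 ± 0.31), Cripto (6.30 ± 0.40) and Cripto with SB431542 (6.19 ± 0.12). Neighbours in this order overlapped except between Media and Nodal. In the 3 low groups Satb1 was still detected on 3 of 5 Cripto with SB431542 arrays, 5 of 5 Nodal arrays and 4 of 5 Cripto arrays.

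Sox5 is described by the probe with the highest mean, ILMN_2631143. It stood at 5.92, 5.69, 5.67, 5.42 and 5.79 with Cripto and SB431542, against 10.44, 10.29 and 10.36 with Nodal and SB431542. It stood at 6.19, 5.78, 5.40, 5.59 and 5.45 with Nodal and at 5.90, 5.30, 5.97, 6.09 and 5.91 with Cripto. It stood at 10.52, 10.79, 10.67, 10.96 and 10.71 with SB431542 and at 10.57, 10.60, 10.52, 11.00 and 10.75 in Media. The same 3 groups were low as for Satb1, and their arrays lay about the detection floor, which ranged from 5.55 to 6.34 over the arrays. Sox5 was detected there on 1 of 5 Cripto with SB431542 arrays, 2 of 5 Nodal arrays and 2 of 5 Cripto arrays. Among the high groups the order was SB431542 (10.73 ± 0.16), Media (10.69 ± 0.19) and Nodal with SB431542 (10.36 ± 0.07), and all 3 arrays of Nodal with SB431542 lay below all arrays of the other two. Among the low groups Cripto (5.83 ± 0.31), Cripto with SB431542 (5.70 ± 0.19) and Nodal (5.68 ± 0.32) overlapped.

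For Ikzf1 the probe with the highest mean, ILMN_2584685, showed the same low groups but a wider spread among the high ones. It stood at 5.88, 6.15, 5.50, 5.57 and 5.42 with Cripto and SB431542, against 10.04, 9.87 and 10.02 with Nodal and SB431542. It stood at 4.99, 5.67, 5.62, 5.82 and 5.23 with Nodal and at 5.49, 5.30, 5.06, 4.92 and 5.68 with Cripto. It stood at 8.69, 8.64, 8.49, 9.03 and 10.17 with SB431542 and at 8.77, 8.68, 8.54, 8.92 and 10.12 in Media. The last array of SB431542 and the last of Media stood more than a log2 unit above the others of their groups and at the height of the Nodal with SB431542 arrays. By mean the order was Nodal with SB431542 (9.98 ± 0.10), Media (9.01 ± 0.64), SB431542 (9.003 ± 0.68), Cripto with SB431542 (5.70 ± 0.31), Nodal (5.47 ± 0.34) and Cripto (5.29 ± 0.31). Neighbours overlapped except between SB431542 and Cripto with SB431542, and Ikzf1 was detected on 2 of 5 Cripto with SB431542 arrays, 1 of 5 Nodal arrays and no Cripto array.

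**Figure D1:**
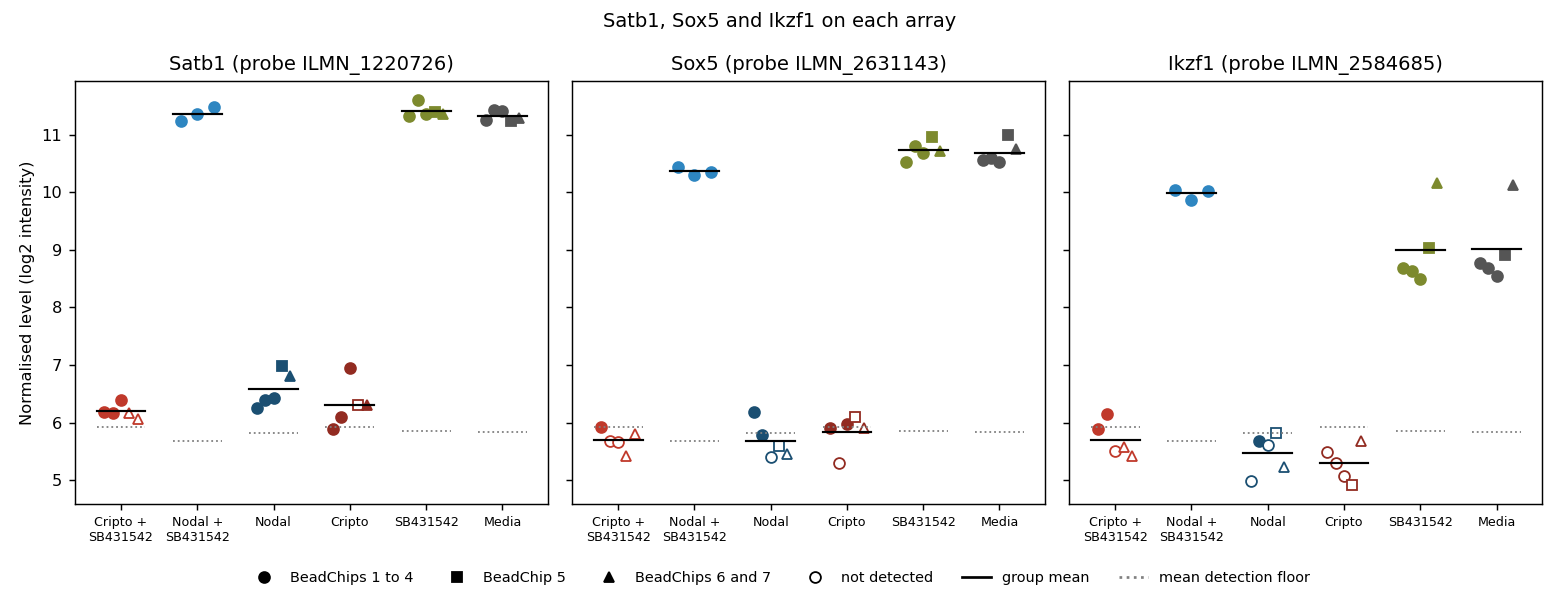
Normalised level (log2 intensity, vertical axis) of the brightest probe of Satb1, Sox5 and Ikzf1 on each of the 28 arrays, by group. Points are arrays, open where not detected, with shapes for the BeadChips; solid lines are group means and dotted lines mean detection floors. Cripto with SB431542 (means 6.19, 5.70 and 5.70) sits with Nodal and Cripto, and Nodal with SB431542 (11.35, 10.36 and 9.98) with SB431542 and Media.

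The falls that chose the genes were as follows, with no test. In Nodal against Media the log2 differences were -4.75 ± 0.13 (SE) for Satb1, -5.00 ± 0.15 for Sox5 and -3.54 ± 0.27 for Ikzf1. In Cripto against Media they were -5.06 ± 0.14, -4.87 ± 0.15 and -3.68 ± 0.28 for the same genes. Both comparisons share the Media arrays. Since Ikzf1 was above background on no Cripto array, its fall there is also given as a bound, at least 8.53-fold lower; such bounds set the mean of the group that was detected against the detection floor of the other group's arrays, or against the probe's own level where that was higher. Over all probes 27% were called lower in Nodal and 29.9% in Cripto against Media.

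SB431542 alone left the 3 genes near their Media level. The log2 differences of SB431542 against Media were 0.04 (95% interval -0.26 to 0.34) for Satb1, 0.00 (-0.34 to 0.33) for Sox5 and 0.02 (-0.59 to 0.63) for Ikzf1, given without a test since the Media arrays were used in the choice. Of the 18471 probes limma called 0% in this comparison, and 606 had an unadjusted p below 0.05.

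Whether each protein still lowered the genes with the kinase inhibitor present was tested between groups that the rule of choice did not use. Earlier results of these data were known at the choice, so these tests are not shown to be independent of it. The fit takes its BeadChip terms and its spread from all 28 arrays, so a fit to the SB431542-containing groups alone is given too. With Cripto and SB431542, against SB431542 alone, all 3 genes fell: Satb1 by a log2 difference of -5.23 ± 0.14 (37.5-fold lower, adjusted p = 6.16e-17), Sox5 by -4.95 ± 0.16 (30.8-fold, 7.46e-16) and Ikzf1 by -3.41 ± 0.29 (10.6-fold, 2.53e-09). In the fit to the 3 groups with SB431542 alone, added after seeing the data, the differences were -5.23, -4.98 and -3.37 (adjusted p = 2.37e-07, 2.34e-07 and 0.00015). All 9 probes were called lower, where 31.2% of all probes tested were called lower in this comparison and 63.9% were called in either direction. Nothing is read from that count, since 6 of the 9 were detected on no array of the low groups and passed the detection filter only through the groups where they are high. The brightest probe of each gene was lower on 3 of 3 BeadChips that held both groups. Ranked from the lowest log2 difference among 9951 genes, Satb1 was at place 6, Sox5 at 11 and Ikzf1 at 61. In Cripto against Media, which was used in the choice, they were at places 6, 11 and 50. Fewer cells that express a gene and less RNA of it per cell cannot be told apart in these bulk samples. The fitted size of the falls depends on how background is handled because the low groups lay about the floor; with the authors' deposited values, which behave as log2 although their transformation is not stated, the differences were -3.35 for Satb1, -2.74 for Sox5 and -1.46 for Ikzf1.

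The dimmer probes of Sox5 and Ikzf1 fell too, and most had no level above background with Cripto and SB431542. For Sox5 the probe ILMN_2448591 had a range of 4.56 to 4.77 in Cripto with SB431542, against 8.41 to 9.33 in SB431542, and was at least 7.46-fold lower. ILMN_1244213 had 4.67 to 5.29, against 7.93 to 8.59, and was at least 5.09-fold lower. ILMN_2580904 had 4.71 to 5.26, against 5.68 to 6.66, and was at least 1.21-fold lower. These 3 probes were detected on no Cripto with SB431542 array and on 5 of 5 SB431542 arrays. For Ikzf1, ILMN_1256645 had 4.69 to 5.04 in Cripto with SB431542, against 6.66 to 7.64 in SB431542, and was at least 2.16-fold lower. ILMN_3127790 had 4.61 to 5.08, against 6.13 to 7.11, and was at least 1.74-fold lower. Both were detected on none of the 5 and on all of the 5 arrays of these groups.

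The fifth measured Sox5 probe, ILMN_1213910, followed the BeadChip. It was detected on 3 of 3 Nodal with SB431542, 3 of 5 SB431542 and 3 of 5 Media arrays, all on BeadChips 1 to 4, and on no array of BeadChips 5 to 7. Its levels in SB431542 were 9.20, 8.04 and 7.74 on BeadChips 1, 3 and 4 and 4.63 and 5.08 on BeadChips 5 and 7. Its fall in Cripto with SB431542 against SB431542 was fitted at -2.24 ± 0.58 (adjusted p = 0.00213), a bound of at least 2.02-fold. Fitted within BeadChips 1 to 4 the difference was -3.56 (8.65e-08), and within BeadChips 5 to 7 it was -0.16 (0.647). ILMN_1213910 passed the detection filter only through the groups where it is high. The filter therefore favours its fall, and nothing is read from these p-values. The other Sox5 probes, of which only ILMN_2631143 was detected in the low groups, kept their call in both sets. What sets ILMN_1213910 apart on BeadChips 5 to 7 was not tested.

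With Nodal and SB431542, against SB431542 alone, none of the 9 probes was called, where limma called 3.65% of all probes. That background count of 675 probes rests on few arrays: it ran from 0 to 1153 when 1 array was left out, and was 0 without the first Nodal with SB431542 array, where 2419 probes had an unadjusted p below 0.05. It was 6 in the fit to the 3 groups with SB431542 alone. The difference was -0.06 (95% interval -0.39 to 0.28, adjusted p = 0.87) for Satb1 and -0.32 (-0.70 to 0.06, adjusted p = 0.332) for Sox5. Sox5 was lower with Nodal and SB431542 on 3 of 3 shared BeadChips, by log2 differences of -0.50 to -0.08. For ILMN_2448591, ILMN_1244213 and ILMN_2580904 the differences were 0.03, -0.30 and -0.20, with adjusted p from 0.382 to 0.932. For ILMN_1213910 the fit gave 0.53 (adjusted p = 0.692), but the probe was lower on 3 of 3 shared BeadChips, by -0.48 to -0.02, and the fit within BeadChips 1 to 4 gave -0.22.

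For Ikzf1 the fitted difference had the other sign, but no probe of it passed the threshold in the fit to all 28 arrays. The difference of Nodal with SB431542 against SB431542 was 1.14 ± 0.33 (95% interval 0.45 to 1.82, adjusted p = 0.0572) for ILMN_2584685, 0.52 ± 0.15 (0.0585) for ILMN_1256645 and 0.62 ± 0.22 (0.12) for ILMN_3127790. All 3 probes were higher on 3 of 3 shared BeadChips, by 1.23 to 1.53 for the first, 0.60 to 0.68 for the second and 0.26 to 1.19 for the third. The 3 probes read the same gene on the same arrays, so they are not separate evidence. The share of all probes that agree in this way was not counted, and nothing is read from it. Among 9951 genes ILMN_2584685 stood at place 120 from the highest difference. The 3 Nodal with SB431542 arrays lie on BeadChips 1, 3 and 4, whereas the high SB431542 array lies on BeadChip 7 and the high Media array on BeadChip 6. Within BeadChips 1 to 4 the difference was 1.37 (adjusted p = 0.000946), and without the SB431542 array of BeadChip 7 it was 1.31 (0.0106). In the fit to the 3 groups with SB431542 alone it was 1.14 (adjusted p = 0.112). Over all 43 alternative settings it ran from 0.86 to 1.37, and it was called in 7 of 15 settings other than leaving out an array and in 5 of 28 that left out an array. Besides the SB431542 array of BeadChip 7 and the Cripto with SB431542 array that alone shares that BeadChip (1.31), these left out the first Nodal array (1.12, adjusted p = 0.0498), the second Cripto with SB431542 array (1.18, 0.0398) or the fifth Media array (1.13, 0.0218).

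**Figure D2:**
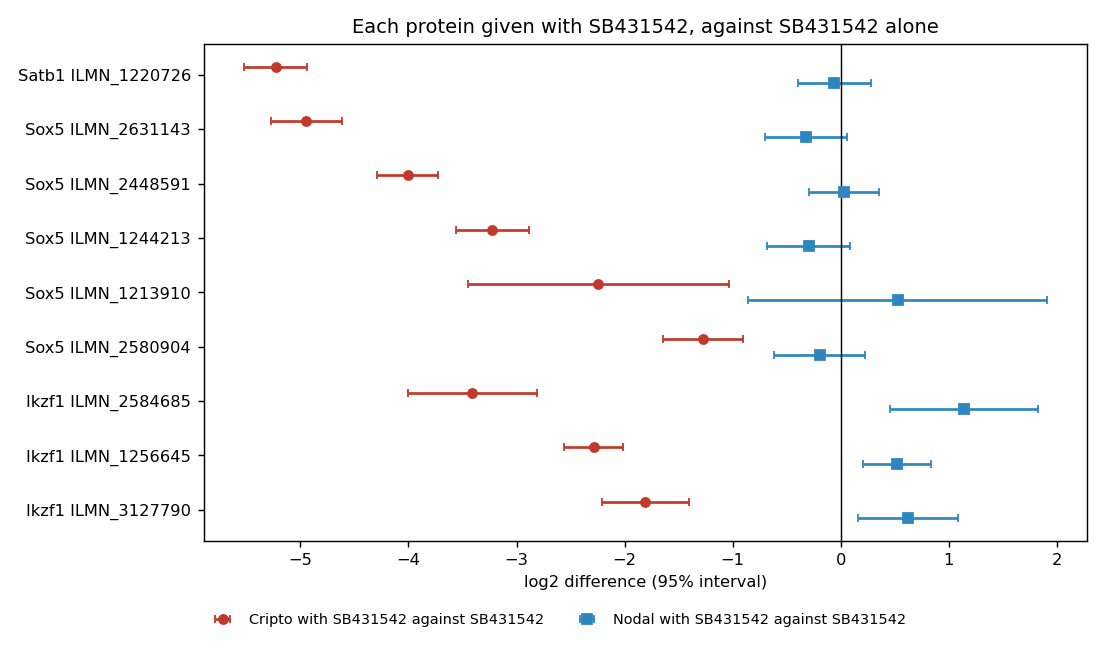
Log2 difference (horizontal axis, with 95% intervals) of the 9 measured probes of Satb1, Sox5 and Ikzf1, for Cripto with SB431542 (circles) and Nodal with SB431542 (squares), each against SB431542 alone. The circles of the 3 brightest probes lie at -5.23, -4.95 and -3.41, and those of the other 6 are fitted values of probes not detected with Cripto and SB431542, for which the text gives bounds. The squares of the 3 Ikzf1 probes lie at 0.52 to 1.14.

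**Figure D3:**
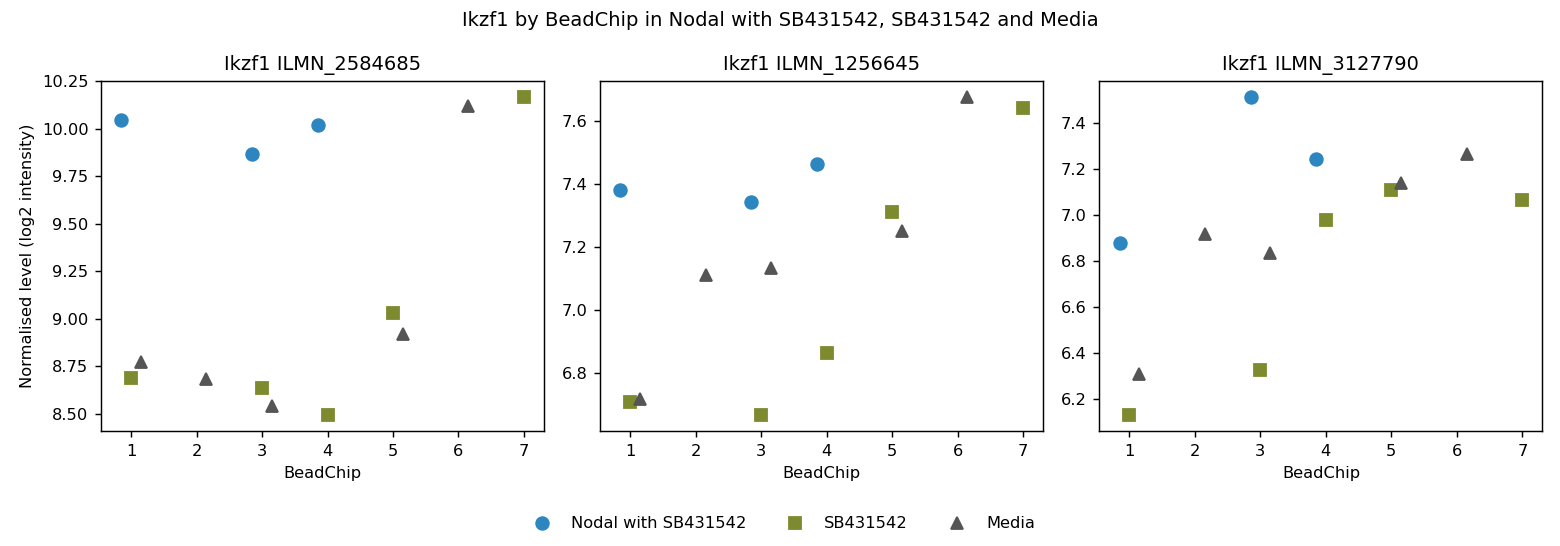
Level (log2 intensity, vertical axis, scaled per panel) of the 3 measured Ikzf1 probes by BeadChip in Nodal with SB431542, SB431542 and Media, 1 point per array. For ILMN_2584685 the Nodal with SB431542 arrays (9.87 to 10.04) stand above the SB431542 and Media arrays of BeadChips 1 to 5 and level with the SB431542 array of BeadChip 7 (10.17) and the Media array of BeadChip 6 (10.12).

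The proteins given with the inhibitor were then set against each other. In Cripto with SB431542 against Nodal with SB431542, Satb1 was lower by a log2 difference of -5.17 ± 0.17 (adjusted p = 2.07e-15), Sox5 by -4.62 ± 0.19 (5.48e-14) and Ikzf1 by -4.55 ± 0.34 (5.22e-10). All 9 probes were called lower, beside 30.1% of all probes, a count that the filter favours as above. The brightest probe of each gene was lower on the 2 BeadChips that held both groups.

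Against the same protein without the inhibitor, the pattern was as follows, given without a test since the Nodal and Cripto arrays were used in the choice. In Nodal with SB431542 against Nodal the log2 differences were 4.73 ± 0.17 for Satb1, 4.68 ± 0.19 for Sox5 and 4.70 ± 0.34 for Ikzf1. In Cripto with SB431542 against Cripto they were -0.13 (95% interval -0.43 to 0.17), -0.07 (-0.41 to 0.26) and 0.29 (-0.32 to 0.90). Over all probes, 24.8% were called higher in the first comparison and 7.89% were called in the second.

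Without the inhibitor the genes were low with Nodal and with Cripto. The choice used both groups for being low, so their difference is given without a test. Over all probes 20.4% were called in Nodal against Cripto. The difference of Satb1 was 0.32 (95% interval 0.03 to 0.60), with Nodal higher on 4 of 4 shared BeadChips. The interval is a description, and no difference between the proteins is read from it. The difference was -0.13 (-0.45 to 0.19) for Sox5 and 0.14 (-0.44 to 0.72) for Ikzf1. Since Sox5 and Ikzf1 lay about the floor in both groups, a difference between the proteins was not detectable at this depth of signal.

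Among their relatives, the other SoxD gene with a level, Sox13, went the opposite way to Sox5. Sox13 averaged 8.52 ± 0.08 with Cripto and SB431542, 5.96 ± 0.19 with Nodal and SB431542, 8.70 ± 0.25 with Nodal, 8.23 ± 0.25 with Cripto, 6.08 ± 0.58 with SB431542 and 6.15 ± 0.27 in Media. In Cripto with SB431542 against SB431542 it rose by 2.46 ± 0.19 (adjusted p = 4.96e-10). Sox6, the third SoxD gene, was detected on no array. Of the 19 other Sox genes 7 were measured, of which 3 rose and 2 fell, where over all 9951 genes 31.5% were called higher and 33.5% lower. Besides Sox13 these were Sox4, a SoxC factor of progenitor cells (1.05 ± 0.28), Sox8, a SoxE gene that was detected on 1 array with Cripto and SB431542 and on none with SB431542, Sox7, a SoxF factor of parietal endoderm (-1.99 ± 0.17), and Sox12 (-0.77 ± 0.15). The median of the 7 was 0.21 beside -0.01 over all genes.

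Ikzf4 had no probe named here, Ikzf2 was detected on no array and Ikzf3 on 1 SB431542 array. Ikzf5, the remaining Ikaros family gene, had 7.84 ± 0.36 with Cripto and SB431542, against 8.57 ± 0.67 with SB431542. It fell by 0.60 ± 0.15 (adjusted p = 0.0016), a call that was lost within BeadChips 5 to 7 (-0.27, adjusted p = 0.32), without a BeadChip term and with median centring.

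Genes of the machinery that Ikaros and Satb1 work with moved in both directions in Cripto with SB431542 against SB431542. Of 11 measured NuRD genes 5 rose and 2 fell, beside 31.5% of all genes higher and 33.5% lower, with a median of 0.30. The largest rise was that of Mbd2, a reader of methylated DNA, which was at least 4.35-fold higher. Mbd2 was detected on no SB431542 array, so the detection filter favours its rise. Mta3 (0.72 ± 0.11) and the histone chaperone gene Rbbp7 (0.54 ± 0.13) rose, and Mta1 (-0.53 ± 0.13) fell. Of 6 measured partners of Satb1, 4 fell and none rose (33.5% of all genes lower), with a median of -0.58: the remodelling ATPase genes Smarca5 (-1.21 ± 0.18) and Smarca4 (-0.61 ± 0.14), the acetyltransferase gene Ep300 (-1.04 ± 0.22) and the corepressor gene Sin3a (-0.54 ± 0.10). Smarca5 was detected on 3 of 5 Cripto with SB431542 and 4 of 5 SB431542 arrays, and its levels overlapped between these groups.

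Of 17 measured genes of genome architecture and the nuclear matrix, 5 rose and 7 fell, shares near the 31.5% and 33.5% of all genes, with a median of -0.42. Lmnb1, which encodes lamin B1, rose by 1.09 ± 0.22. Hnrnpu, a nuclear matrix protein gene (-1.27 ± 0.22), Smc1a, a cohesin subunit gene (-1.16 ± 0.09), and Cux1, a homeodomain factor gene (-0.97 ± 0.12), fell. Hnrnpu was detected on 3 of 5 Cripto with SB431542 and 4 of 5 SB431542 arrays, with levels that overlapped between these groups. These lists depend on the scaling: median centring of the arrays in place of quantile normalisation moved the median of all genes to 0.31, and Ikzf5, Sox12, Mta1, Smarca4 and Sin3a, at -0.18, -0.30, -0.07, -0.16 and -0.07, were then not called. With that scaling 7 NuRD genes rose and none fell, 1 partner of Satb1 rose and 2 fell, and 6 architecture genes rose and 3 fell. The medians of these 3 lists were then 0.77, -0.11 and -0.05. Without a BeadChip term in the fit Hnrnpu, Smarca5 and Sin3a lost their calls, with array brightness as a covariate Smarca4 and Sox4 did, and within BeadChips 5 to 7 Rbbp7 and Sin3a did. In Nodal with SB431542 against SB431542 none of these genes was called, beside 3.46% of all genes.

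**Figure D4:**
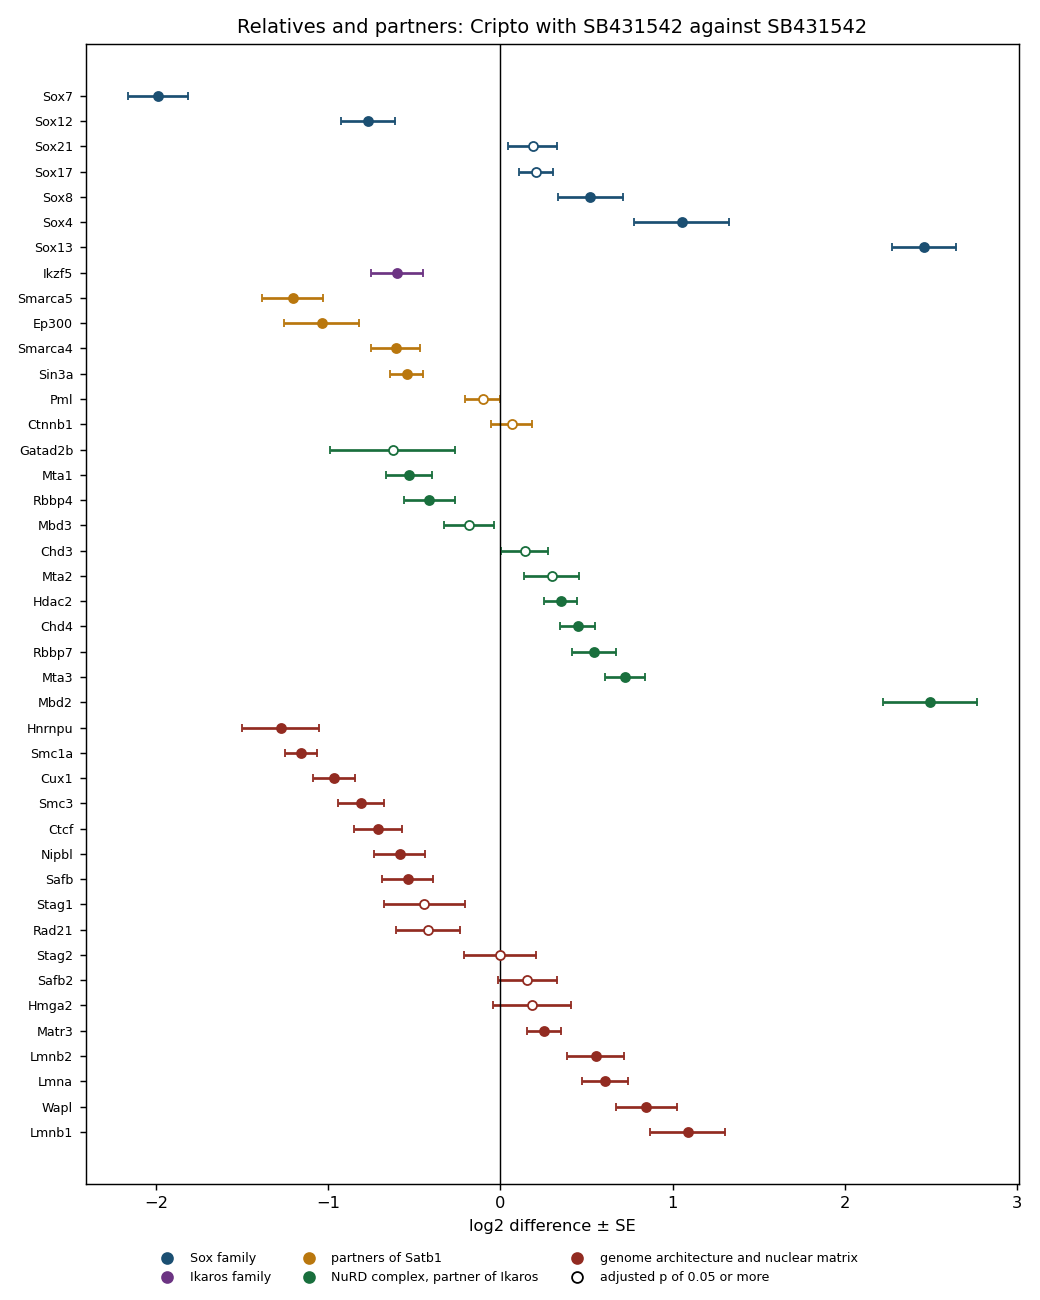
Log2 difference ± SE (horizontal axis) of the measured relatives and partner genes of Satb1, Sox5 and Ikzf1 in Cripto with SB431542 against SB431542, coloured by list and filled where the adjusted p is below 0.05. Sox13 (2.46) and Mbd2 (2.50) lie farthest to the right and Sox7 (-1.99) farthest to the left.

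Genes that the 3 factors are known to act on in other tissues were mostly not detected. Of 18 lymphoid targets with a probe 4 were measured, of which Gata3, a factor of T cell and trophoblast development, fell by 3.76 ± 0.15 and Vpreb1, a surrogate light chain gene, rose by 1.06 ± 0.20. The adaptor gene Blnk was called lower (adjusted p = 0.0233) but was detected on no array with Cripto and SB431542 and on 3 of 5 with SB431542, so no fold is given, and its call was lost in several settings. Of 11 cartilage genes 3 were measured, and Comp, a cartilage matrix gene, fell by 2.24 ± 0.22 while the other two were not called. Gata3 and Comp were each detected on 2 of 5 Cripto with SB431542 arrays, and Vpreb1 on 2 of 5 SB431542 arrays. Their sizes are therefore uncertain: in settings other than leaving out an array, the smallest differences were -1.81 for Gata3, -0.88 for Comp and 0.25 for Vpreb1.

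Some markers of other cell types that use these factors were called in the same comparison. Of 16 blood and endothelial markers with a probe 6 were measured, and 4 fell in Cripto with SB431542 against SB431542 (33.5% of all genes lower): the endothelial cadherin gene Cdh5 (-3.24 ± 0.12), the lysosomal membrane gene Laptm5 (-2.34 ± 0.35), the adaptor gene Tyrobp (at least 1.03-fold lower) and the embryonic globin gene Hba-x (at least 7.50-fold lower). Tyrobp and Hba-x were detected on no Cripto with SB431542 array, so the detection filter favours their fall and nothing is read from this count. The summed log2 level of the 16 ranged from 88.4 to 90.9 with Cripto and SB431542, 97.1 to 99.99 with Nodal and SB431542, 89.3 to 93.0 with Nodal, 87.96 to 92.9 with Cripto, 96.8 to 101.6 with SB431542 and 98.0 to 103.5 in Media. Of the 16, 6 were detected on no array of any group (Ptprc, Cd48, Spi1, Tal1, Itgam and Pecam1), whereas Laptm5, Cdh5, Fcer1g and Runx1 were detected on all arrays.

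Of 9 chondrocyte and neural markers with a probe 2 were measured, and the neural adhesion gene Ncam1 was at least 2.90-fold lower in Cripto with SB431542. Ncam1 was detected on no array of that group, so the filter favours its fall too. Of 13 extraembryonic endoderm markers 8 fell and none rose, beside 33.5% of all genes lower and 31.5% higher, and 6 fell and 2 rose with median centring. Those that fell included Sox7, Lamb1 (-1.26 ± 0.23), Sparc (-0.78 ± 0.16) and Pdgfra (-0.71 ± 0.14), which was not called with median centring. Lamb1 levels overlapped between the groups, and its call held in 15 of 16 settings other than leaving out an array (adjusted p up to 0.298). Of 3 measured trophoblast markers, Cdx2 and Krt7 rose by at least 2.38-fold and 1.98-fold and Gata3 fell. Of 2 measured epiblast markers, Zfp42 rose by at least 1.85-fold and Pou5f1 fell by 0.83 ± 0.25. Pou5f1 was not called with array brightness as a covariate or within BeadChips 5 to 7. Cdx2, Krt7 and Zfp42 were detected on no SB431542 array, so the detection filter favours their rises and nothing is read from these counts. Neither of 2 measured fibroblast markers was called. In Nodal with SB431542 against SB431542 no marker of these lists was called. The part of a change in cell types in the falls of Satb1, Sox5 and Ikzf1 was not tested.

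Likeness to each gene was measured as Pearson's r over the 28 arrays after removing the BeadChip effects, among 9951 genes. The arrays fall into a high and a low set, so r here mostly ranks how cleanly a gene splits them, and it is a description. Between the genes themselves r was 0.992 for Satb1 and Sox5, 0.962 for Satb1 and Ikzf1 and 0.959 for Sox5 and Ikzf1, and 969 other genes had r above 0.9 with both Satb1 and Sox5. Most like Satb1 were Dmrtc1c1, Ncam1, Cdh5, Ifi27l2a and St6gal1 (r 0.996 each), and most opposite were Rnf130 (-0.996), Ddc and Cemip2 (-0.994 each). Most like Sox5 were Acss1, Sdk1 and Atp4b (0.997 each), 6430548M08Rik and Btn1a1 (0.996 each), and most opposite were Rnf130 (-0.995), Cldn6 (-0.994) and Cemip2 (-0.993).

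Ikzf1 had other neighbours: Pmch (0.987), Tcaf2 (0.986), Slc25a37 (0.985), Plat (0.983) and Nid1 (0.982), with Car4 and Cpn1 (-0.983 each) and Pcgf5 (-0.98) most opposite. Pmch averaged 10.72 ± 0.13 in Nodal with SB431542, against 9.98 ± 0.61 in SB431542, and Nid1, a basement membrane gene, 14.70 ± 0.06 against 13.90 ± 0.43. The mitochondrial iron importer gene Slc25a37 averaged 9.70 ± 0.17 and 8.91 ± 0.40 in these groups, Tcaf2 8.85 ± 0.21 and 8.42 ± 0.48, and Plat 13.27 ± 0.12 and 13.06 ± 0.29. They were picked for their likeness to Ikzf1, so their order of these groups is a description. Sdk1, a neighbour of Sox5, averaged 9.997 ± 0.10 in Nodal with SB431542 and 10.27 ± 0.28 in SB431542. For the 3 genes together the highest values of the lowest r were those of Pmch (0.984), Tcaf2 and Klre1 (0.981 each), Vgll3 (0.98) and Nrcam (0.978), and the most opposite genes were Cpn1 (-0.982), Klf9 and Ankrd1 (-0.976 each).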

How the data were processed

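Total RNA (200 ng per array) of 28 samples was hybridised to Illumina mouseWG6v2 BeadChips. The deposited per-array files hold a bead-averaged signal intensity and a detection p-value per probe, per the file headers, neither scaled between arrays nor background-subtracted, as the values show. A deposited table of the authors holds processed values that behave as log2 with column medians from 7.85 to 7.88. Its transformation and normalisation are not stated, its values rank the probes of an array as the signal does (Spearman's rho of 1 to rounding on every array), and it served as an alternative. BeadStudio and lumi are named in the submitters' processing notes, without versions.

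Signals were background-corrected on the negative-control estimate of the detection p-values, quantile normalised and taken to log2 with limma 3.58.1 (neqc, offset 16) in R 4.3.3, with the package data.table (version 1.17.8), and figures were drawn in Python 3.11.15 with pandas 2.3.3 and matplotlib 3.10.9. Probes with a detection p below 0.01 on at least 3 arrays were kept (18471 of 45281). limma was fitted to all 28 arrays with group and BeadChip as fixed terms (16 residual degrees of freedom and 4.29 prior ones), two-sided, with Benjamini-Hochberg adjustment over the 18471 probes and a threshold of 0.05, as in every adjusted p given here. Nodal against Cripto was fitted as a test, but its arrays chose the members, which are given there without one. The fit was tested on simulated data before use. Gene names came from the platform annotation given here: 34885 probes had 1 symbol, 18 several and 10378 none. A gene other than Satb1, Sox5 and Ikzf1 is represented by its kept probe with the highest mean. The number of arrays limits the precision, and no 2 arrays held identical values.

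The members and the gene lists were chosen with earlier results of these data known. Named are all probes of the members, their family genes, up to 4 called genes of each list with the largest change in Cripto with SB431542 against SB431542, and for each member and the 3 together the 5 genes most like and the 3 most opposite. Other markers named for detection, and Sox8, Lamb1 and the genes that lost a call, were picked from those lists after their values were seen. Alternatives tried were the background correction, offset, scaling, detection filter, probe choice, BeadChip term, variance model, array brightness, BeadChip sets and leaving out each array. Probe and protein sequences were not used here.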

Additional observations from a re-analysis of the deposited data

Results flagged for a closer look

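Each measured probe was tested for a lone array in each group of 5 arrays by Dixon's criterion (critical ratio 0.71). In 6 of these 45 sets 1 array stood apart, where chance alone marks about 1 in 20 independent sets. The sets share arrays and are not independent, so nothing is read from that count. For Satb1 it was the second SB431542 array, at 11.60 on BeadChip 3, against 11.32 to 11.39 on the others. For Sox5 the second Cripto array stood at 5.30 for ILMN_2631143, against 5.90 to 6.09. The Sox5 probe ILMN_2448591 stood apart on BeadChip 5 in both proteins alone, at 5.84 in the fourth Nodal array (others 4.55 to 4.74) and at 5.68 in the fourth Cripto array (others 4.57 to 4.80). BeadChip 5 held the dimmest arrays. For Ikzf1 the fifth Media array stood at 10.12 for ILMN_2584685 on BeadChip 6, against 8.54 to 8.92, and the fifth Nodal array at 5.04 for ILMN_1256645, against 4.67 to 4.74. The values of 5.30, 5.84, 5.68 and 5.04 lie below the detection floors of their arrays (5.60, 6.13, 6.34 and 6.03) and are background readings.

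The effect with the inhibitor present differed between Cripto and Nodal for 9 of 9 probes in limma's test of the difference (Cripto with SB431542 against Nodal with SB431542). Over all probes, 63.6% were called in either direction and 30.1% were called lower. Nothing is read from the count of 9, since 6 of them were detected on no array of the low groups. Those 6 passed the detection filter only through the groups where they are high. The log2 difference was -5.17 for Satb1. It was -4.62 for ILMN_2631143 of Sox5 and -4.55 for ILMN_2584685 of Ikzf1. The other 6 probes were detected on no Cripto with SB431542 array and have bounds only. The Sox5 probes were at least 6.72-fold (ILMN_2448591), 3.90-fold (ILMN_1244213) and 4.53-fold (ILMN_1213910) lower, and the Ikzf1 probes at least 2.77-fold (ILMN_1256645) and 2.44-fold (ILMN_3127790). ILMN_2580904 of Sox5 had no bound above 1, and its fitted -1.08 is no measured fold. The adjusted p was 2.07e-15 for Satb1, 5.48e-14 for ILMN_2631143 and 5.22e-10 for ILMN_2584685. Each of these brightest probes was lower on both BeadChips that held the 2 groups. The filter favours the falls of the other 6 probes, so their p-values are not given here.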

How the results depend on the processing

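The 3 genes remained called lower in Cripto with SB431542 against SB431542 and against Nodal with SB431542 under every alternative that held both groups, and no called result reversed. Of the 9 member probes, ILMN_1213910 alone lost its call, within BeadChips 5 to 7. The sizes of the falls moved. In the order Satb1, Sox5 and Ikzf1, Nodal against Media gave -3.61, -3.34 and -1.95 without background correction, -4.32, -4.29 and -2.81 with an offset of 50, -4.22, -4.44 and -2.97 with median centring, and -3.13, -2.72 and -1.43 with the authors' values. Cripto against Media gave -3.73, -3.30 and -2.004, then -4.54, -4.22 and -2.89, then -4.51, -4.34 and -3.07, and -3.22, -2.70 and -1.46 in these settings. Nodal with SB431542 against Nodal gave 3.61, 3.07 and 2.88, then 4.31, 3.996 and 3.88, and 3.14, 2.48 and 2.26 without background correction, with the offset of 50 and with the authors' values, and 4.30 for both Satb1 and Sox5 with median centring. Array brightness as a covariate gave -5.07 (Satb1) and -4.76 (Sox5) for Nodal against Media, -5.43 and -4.60 for Cripto against Media, and 4.97 for Satb1 in Nodal with SB431542 against Nodal. Within BeadChips 1 to 4 Nodal against Media gave -5.00 for Satb1. Within BeadChips 5 to 7, which hold no Nodal with SB431542 array, it gave -4.37, -5.35 and -3.99, and Cripto against Media gave -4.22 for Ikzf1. Cripto with SB431542 against Cripto gave -0.35 for Satb1 with median centring, and -0.36 for Sox5 and -0.20 for Ikzf1 (0.29 over all arrays) within BeadChips 5 to 7.

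The difference of Ikzf1 in Nodal with SB431542 against SB431542 (1.14, not called) passed the threshold without background correction (0.96), with the offset of 50 (1.09), with the authors' values (0.86), with BeadChip as a random block (1.08), with a trended, robust variance (1.14), within BeadChips 1 to 4 (1.37), and without replicate 5 of Media and of SB431542 together (1.32), a setting added after seeing the data. Leaving out 1 array gave 1.02 to 1.31. Sox5 passed in this comparison with the authors' values (-0.28). Satb1 in Nodal against Cripto, given without a test, was 0.35 with the brightness covariate and ran from 0.21 to 0.43 with 1 array left out.

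The 675 probes called in Nodal with SB431542 against SB431542 became 146 with median centring, 366 without the detection filter, 366 with 1 probe per gene, 8 without a BeadChip term, 1013 within BeadChips 1 to 4, 50 without BeadChip 5 (added after seeing the data), 1540 without replicate 5 of Media and of SB431542, and 6 in the fit to the 3 groups with SB431542 alone (added likewise; 4915 had an unadjusted p below 0.05). With 1 array left out the count ran from 0 to 1153. Every SB431542 and every Nodal with SB431542 array moved it by over 1.5 times, as did replicate 1 of Nodal and replicate 5 of Media and of Cripto with SB431542. The 3768 of Nodal against Cripto became 1780 with median centring, 2495 with 1 probe per gene, 1735 without a BeadChip term, and 1067 and 1323 within BeadChips 1 to 4 and 5 to 7. With 1 probe per gene, where 9951 were tested, Cripto with SB431542 against SB431542 had 6521 calls (11794 over all probes) and against Nodal with SB431542 6396 (11755). Median centring put 69.2% of the calls of Cripto with SB431542 against SB431542 on the higher side (51.2% with quantile normalisation), and 99.3% (81.8%) in Nodal with SB431542 against SB431542. Counting a probe once per setting, 32 calls of other named probes were lost over all alternatives, with Blnk, Ikzf5, Sin3a, Smarca4, Hnrnpu, Pou5f1 and Sox4 in more than 1 setting, and 7 were gained, all of the 2 dimmer Ikzf1 probes in Nodal with SB431542 against SB431542. The causes were not tested.

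No paired analysis was possible because the labels give no replicate numbers; BeadChip was the block. Levels near the detection floor limit every low group: there the size of a fall is open to the background step, and differences among Cripto with SB431542, Nodal and Cripto cannot be resolved for Sox5 and Ikzf1.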
